A study of Gallus gallus with 14 samples.

Results

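The clones described here are the expressed sequence tag (EST) clones of the dkfz426 library on a chicken array. They were chosen by the start of their identifier, with the clones of CXCR4 (dkfz426_3j23r1) and AP1B1 (dkfz426_15a17r1) left out. This gave 273 of the 12854 EST clones on the array, or 2.12%. No table used here pairs these 273 identifiers with a gene, so the clones are known by their identifiers alone, and markers of B cells could not be looked for among them.

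An EST clone is a cDNA made from a messenger RNA, so the brightness of its spot reports the transcript it was copied from. The dkfz426 library was made from lymphocytes of the bursa of Fabricius, the organ in which birds form and diversify their B cells. DT40 is a B-cell line that arose from a bursal lymphoma induced by avian leukosis virus. Library and line therefore come from the same lineage, whereas most of the array consists of clones named ChEST, which were made from many tissues.

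The arrays compared DKO-R, DKO-S and DT40 cells. In DKO-S both copies of the clathrin heavy-chain gene of DT40 were deleted and clathrin came from a Tet-Off transgene that doxycycline (DOX) represses. DKO-R was derived from DKO-S, so both lines carry the same deletion and transgene, and survives the loss of clathrin better. DT40 is the wild-type parent. Each line was grown in 2 cultures, A and B, which the labels call biological replicates, with DOX and without it. This gave 12 RNA extracts of DKO-R with DOX, DKO-R without DOX, DKO-S with DOX, DKO-S without DOX, DT40 with DOX and DT40 without DOX. How much DOX the cells of the arrays received, and for how long, is stated in no source used here. Of the 7 pairs of extracts hybridised, 6 set a culture with DOX against the same culture without it, on what are called the DOX arrays below. The remaining pair set DKO-R against DKO-S, culture A of each without DOX, on what are called the direct arrays. Every pair was hybridised on 2 arrays with the dyes Cy3 and Cy5 exchanged, 14 arrays in all. DKO-R and DKO-S are each a single line, so a difference between lines cannot be told apart from one between single isolates.

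The dkfz426 clones were measured more often than the array as a whole. BlueFuse, the software that read the spots, gives each spot a confidence between 0 and 1, and spots of 0.30 or more were kept. On 12 of the arrays 74.4% to 91.5% of the 527 dkfz426 spots were kept (median 85.5%), against 54.7% to 71.8% of the spots of all other clones (median 65.2%), and the share was higher for dkfz426 on 12 of 12. The median lay above that of the ChEST clones (57.2%) and below those of the DT40subNB (89.1%) and pgn1c clones (90.9%), and the pat clones kept 92.3% to 96.1%. By line, 81.6% to 86.7% of the dkfz426 spots were kept on the 4 DKO-R arrays, 77.2% and 85.8% on the 2 usable DKO-S arrays and 86.9% to 91.5% on the 4 DT40 arrays. Of the spots of all other clones, 60.3% to 71.8% were kept in DKO-R, 56.7% and 67.0% in DKO-S and 62.7% to 67.0% in DT40. For dkfz426 the direct arrays were the lowest of the 12, at 74.4% and 74.8%. The dkfz426 spots were also brighter. Their median intensity was 1.41 to 2.06 times that of all clones in Cy3 and 1.46 to 2.33 times in Cy5, over the same 12 arrays.

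**Figure D1:**
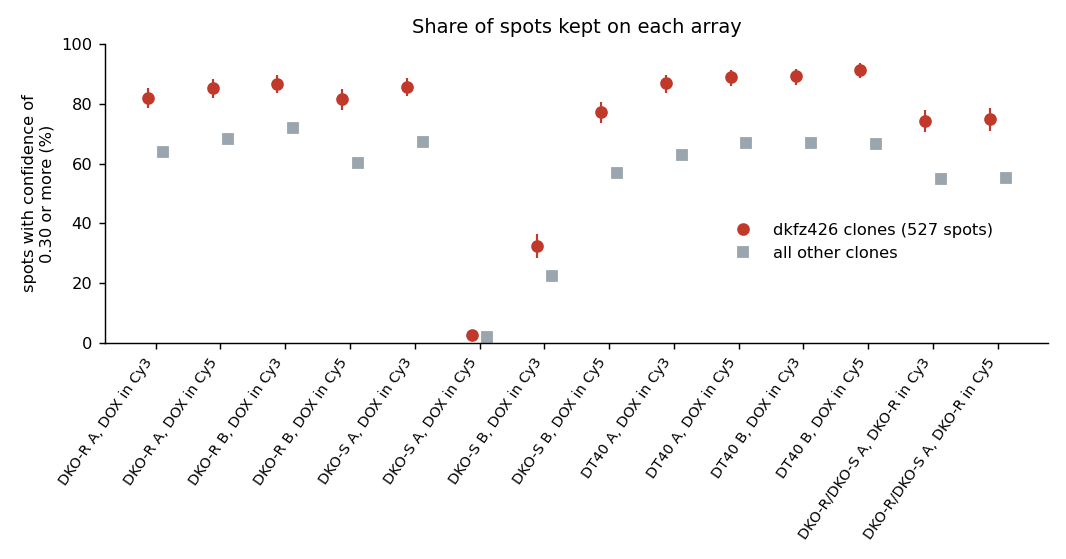
Share of spots with a confidence of 0.30 or more on each of the 14 arrays (y axis, %), for the 527 dkfz426 spots (circles, with exact 95% binomial intervals that cover counting error only) and for the spots of all other clones (squares). On the 12 usable arrays dkfz426 ran from 74.4% to 91.5%, above the other clones on each, and the pair of weak DKO-S arrays stands at 2.47% and 32.3%.

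A pair of DKO-S arrays was too weak for use in the DKO-S comparisons by the same measure. For culture A the array that held the DOX extract in Cy5 kept 2.47% of the dkfz426 spots and 2.12% of the others, and for culture B the array that held it in Cy3 kept 32.3% and 22.5%. They were left out of the DOX response of DKO-S and of the levels of each line, unless named. There each DKO-S culture rests on 1 DOX array and 1 dye orientation. In the other comparisons of dye ratios they entered only the shared spread, for clones kept on both arrays of a culture. On the 12 other arrays 175 of the 273 clones were measured on every array, 96 on some and 2 on none. A further limit concerns the labels. The direct and the DOX arrays give DKO-R over DKO-S in opposite directions for many clones, dkfz426 among them, as described below, so directions between these lines are given for each set of arrays by its own labels. Which derived line differs from DT40 is likewise given by the labels of the DOX arrays, and depends on them.

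Most dkfz426 clones were printed as a pair of spots. There were 232 such clones, and 33 were printed in 1 spot, 2 in 3 and 6 in 4. All 48 printed blocks of the array held some, between 7 and 16 spots each. Between both spots of a clone the log2 ratio of the dyes differed by a median of 0.19 to 0.31 over the 12 arrays (median 0.23), against 0.19 to 0.32 for the other clones (median 0.21). The spread between spots was therefore close to that of the array in general.

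The first question was whether any dkfz426 clone differed between DKO-R and its parent DKO-S on the direct arrays. None passed the threshold, an adjusted p under 0.15 from limma with Benjamini-Hochberg adjustment over all 5835 clones tested. Of the 180 dkfz426 clones tested, 0 were called, where 0.137% of all clones were. An unadjusted p under 0.05 was found for 32 of the 180, or 17.8%, against 9.75% of all clones tested. The log2(DKO-R/DKO-S) of the 180 clones had a median of 0.04 and ran from -1.11 to 1.06, around a median of 0.00 for all clones. As the comparison rests on 1 pair of extracts, its spread was taken from the pairs on the DOX arrays. For clones kept on them, this included the weak DKO-S arrays.

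Among clones whose sign held after the dye exchange, dkfz426_13p5r1 was furthest from equality. Its log2(DKO-R/DKO-S) was -1.03 where Cy3 held DKO-R and -1.19 where Cy5 did. Both arrays put it lower in DKO-R by about the same amount. By limma the mean of -1.11 (standard error 0.19) had an adjusted p of 0.168, just above the threshold. Its adjusted p was 0.149 after loess and 0.0451 after centring each printed block, both under the threshold. It was 0.357 with the weak DKO-S arrays left out of the spread, and 1.00 both without the confidence filter and from the deposited log2 table. With a DT40 or a DKO-S culture left out of the spread the adjusted p was 0.0497 or 0.121, and with a DKO-R culture left out it was 0.269. Next on the lower side, dkfz426_6p5r1 was at -0.85 and -0.79, and dkfz426_6o9r1 at -0.87 and -0.60. On the opposite side dkfz426_11c14r1 was at 0.42 and 1.24, dkfz426_20d19r1 at 1.16 and 0.39, and dkfz426_16p15r1 at 0.91 and 0.61. Their adjusted p values by limma ran from 0.278 to 0.369, so none of these differences passed the threshold. The highest mean of all, 1.06 for dkfz426_9e5r1, came from 1 array only, since its ratio was -0.13 when Cy3 held DKO-R but 2.26 when Cy5 did.

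Beyond 2-fold, more clones followed the dye than the line. Of 202 dkfz426 clones measured on both direct arrays, 89 (44.1%) had the same sign of DKO-R over DKO-S in both orientations, against 44.7% of the other clones. Only 1 clone, dkfz426_13p5r1, was 2-fold or more apart in the same direction on both arrays. In contrast, 10 clones had at least 2-fold more Cy5 than Cy3 on both arrays, whichever line Cy5 held, and 0 had as much more Cy3. Of 7044 other clones 14 were 2-fold apart in the same direction on both arrays and 156 followed either dye by as much. Among clones that also had a dye effect on the DOX arrays, 5.18% of dkfz426 clones were 2-fold brighter in Cy5 on both direct arrays, against 2.29% of all others, 13.2% of pat, 5.38% of pgn1c, 0.357% of DT40subNB and 0.126% of ChEST clones. The clearest dkfz426 clone was dkfz426_13o22r1, at -2.86 where Cy3 held DKO-R and 3.11 where Cy5 did. Exchange of the dyes turned its ratio round almost completely, leaving a mean of 0.12. Next came dkfz426_13k24r1 at -2.35 and 2.42, and dkfz426_9h1r1 at -2.10 and 2.39. Averaged over both orientations, the 10 clones lay between -0.20 and 0.54 (median 0.13).

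**Figure D2:**
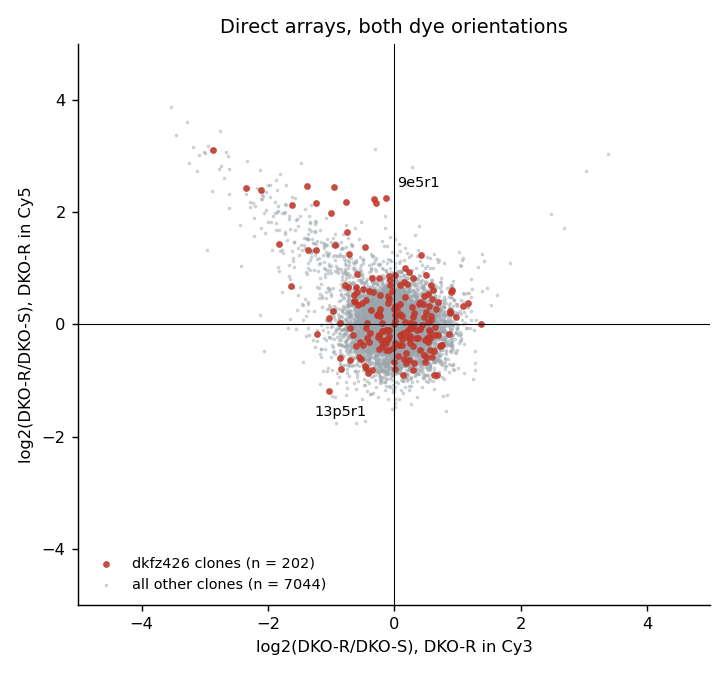
log2(DKO-R/DKO-S) of each clone when DKO-R was labelled with Cy3 (x axis) and when it was labelled with Cy5 (y axis) on the direct arrays, for 202 dkfz426 clones and 7044 other clones. A clone that follows the line lies on the rising diagonal, as dkfz426_13p5r1 does at -1.03 and -1.19, and one that follows the dye lies in the upper left, where 10 dkfz426 clones stand 2-fold or more from 0 on both axes.

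The same clones followed the dye on other arrays. The dye effect of a clone was taken as its mean log2(Cy5/Cy3) over the 8 DOX arrays of DKO-R and DT40, in which DOX was in each dye equally often. It could be given for 228 dkfz426 clones, with a median of 0.01 and a range of -0.41 to 1.68. The highest was dkfz426_13o22r1, at 1.68 ± 0.25, followed by dkfz426_13k24r1 at 1.26 ± 0.19 and dkfz426_20h7r1 at 1.03 ± 0.23 (SD, n = 4 pairs of arrays). The lowest were dkfz426_11d10r1 at -0.41 ± 0.16, dkfz426_13p21r1 at -0.37 ± 0.20 (SD, n = 4) and dkfz426_2p6r1 at -0.37 ± 0.24 (SD, n = 3). All 10 clones that were 2-fold brighter in Cy5 on the direct arrays had a dye effect above 0 here, from 0.33 to 1.68. Across the 193 dkfz426 clones with both measures, Pearson's r between the Cy5 excess on the direct arrays and the dye effect on the DOX arrays was 0.87 (Spearman's rho 0.68), against 0.76 (0.53) across 6416 other clones. These are correlations across clones that share the arrays and the dyes, and are a description only. A dye effect of 2-fold or more was found for 4 dkfz426 clones (1.75%), against 0.835% of all clones, 0.0585% of ChEST clones, 0.0835% of DT40subNB clones, 3.4% of pgn1c clones and 4.82% of pat clones. The share of dkfz426 clones that follow the dye thus lay between those of the other libraries.

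DOX, which represses the transgenic clathrin in DKO-R and DKO-S and has no such target in DT40, was compared next, as log2(DOX/no DOX) in each line. No dkfz426 clone was called in any line, at an adjusted p under 0.05 from limma. In DKO-R 0 of 199 clones tested were called and 17 had an unadjusted p under 0.05, where 0% and 8.09% of all 6500 clones did. For DKO-S these were 0 and 13 of 216, where 0% and 3.99% of all 7377 clones did. For DT40 they were 0 and 11 of 199, where 0% and 6.05% of all 6500 clones did. The median log2 ratio of the dkfz426 clones was 0.01 in DKO-R, -0.01 in DKO-S and 0.02 in DT40, and those of all clones tested were 0.01, -0.00 and 0.01. In DKO-R and DKO-S 0 clones of the library were 2-fold apart, where 0% and 0.0813% of all clones were. The shares of dkfz426 clones under the unadjusted p were 8.54%, 6.02% and 5.53%, close to the array in DKO-R and DT40.

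Replicate cultures shared little of these small ratios. In DKO-R, culture A and culture B gave the same sign for 117 of 220 dkfz426 clones (53.2%), with a Pearson's r across clones of -0.01, against 54.8% and r = 0.15 over the other clones. In DT40 they did so for 139 of 233 (59.7%, r = 0.10), against 3951 of 7593 and r = 0.11 over the others. In DKO-S, 82 of 209 clones (39.2%) had the same sign and r was -0.42, against 38.9% and -0.37 over the others. Both DKO-S cultures rest there on single arrays of opposite dye orientation, from which only the mean dye effect of the DKO-R and DT40 arrays had been subtracted.

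**Figure D3:**
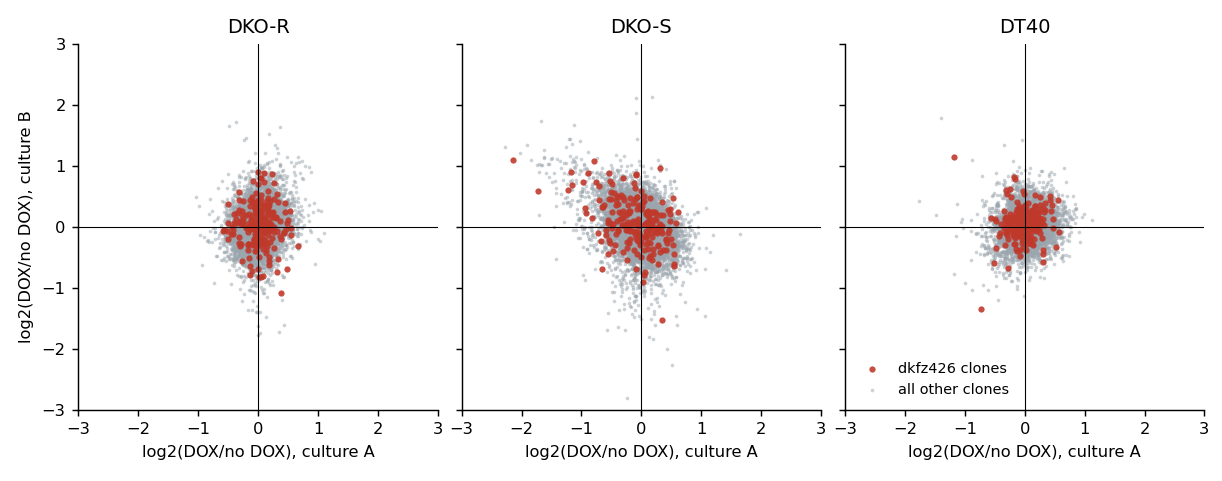
log2(DOX/no DOX) of each clone in culture A (x axis) and culture B (y axis) of DKO-R, DKO-S and DT40, for dkfz426 clones (large points; 220, 209 and 233 clones) and all other clones (small points). Clones that respond in both cultures would lie on the rising diagonal, whereas the DKO-S points run along the falling one (r = -0.42 over the dkfz426 clones).

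The clones with the same sign on all arrays of a line were few and their ratios small. In DKO-R there were 28 of 199 such clones (14.1%, against 13.9% of all clones), of which 21 were higher with DOX. The highest of these was dkfz426_12a12r1, at 0.04 and 0.15 in culture A and 0.94 and 0.81 in culture B. Its ratio therefore came from culture B. The clones dkfz426_10p21r1 (0.17 and 0.45 in culture A, 0.53 and 0.56 in culture B) and dkfz426_20k24r1 (0.54 and 0.38, 0.18 and 0.61) were more even over the cultures. The mean was 0.43 for both (standard errors 0.14 and 0.13), and limma gave an adjusted p of 0.593 for each. The lowest were dkfz426_19j20r1, dkfz426_19o22r1 and dkfz426_15d15r1, with means between -0.33 and -0.30 and adjusted p values of 0.607 to 0.629.

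In DT40 16 of 199 clones (8.04%, against 11% of all clones) had the same sign on 4 of 4 arrays. The lowest of them was dkfz426_3e12r1, which was printed in 1 spot and measured on 9 of the 12 usable arrays. Its ratios were -0.56 and -0.48 in culture A and -0.56 and -0.62 in culture B, which average -0.56 (standard error 0.14, and by limma an adjusted p of 0.713). The same clone in DKO-R was at -0.56 and -0.00 in culture A and -0.42 and 0.61 in culture B, which do not share a sign. Next was dkfz426_18e10r1 with a mean of -0.41, and the highest was dkfz426_29e10r1 with a mean of 0.35, at adjusted p values of 0.713 and 0.794.

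A single dkfz426 clone reached 2-fold in a DOX comparison, and it was the only clone of the array to do so in DT40 (0.0154% of the clones tested). This was dkfz426_13o22r1, named for this value, whose log2(DOX/no DOX) averaged -1.03 (standard error 0.30, and by limma an adjusted p of 0.713). Its ratios were -2.77 and -2.95 with the DOX extract in Cy3 and 1.33 and 0.27 with the DOX extract in Cy5. The sign turned with the exchange of the dyes, and the sizes differed between the orientations. It is also the clone with the highest dye effect of the library. What the mean reflects was not tested.

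The DOX arrays of DKO-S were usable in 1 orientation for each culture. The highest dkfz426 clones with the same sign in both cultures were dkfz426_11a24r1 at 0.31 in culture A and 0.96 in culture B, and dkfz426_30m2r1 at 0.53 and 0.47. The lowest were dkfz426_11h24r1 at -0.65 and -0.69, and dkfz426_17k15r1 at -0.55 and -0.44. The standard errors ran from 0.15 to 0.18 and the adjusted p was 0.999 for each of the 4, from limma. With both orientations required, which brings the weak arrays back, 18 of 102 dkfz426 clones were called, all higher with DOX, and 17% of all clones tested were called in that setting.

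The difference between the DOX responses of DKO-R and DT40 was tested directly. Of 199 dkfz426 clones limma called 0, and 14 (7.04%) had an unadjusted p under 0.05, where 0% and 5.02% of all 6499 clones did. None was 2-fold apart, where 0.0769% of all clones were. The largest differences among clones with the same sign in every pairing of cultures were 0.72 for dkfz426_12a12r1 and -0.76 for dkfz426_5e23r1, with adjusted p values of 0.861 and 0.841 from limma. The clone dkfz426_5e23r1 was at -0.89 and 0.35 in culture A and -1.19 and 0.07 in culture B of DKO-R, against 0.49 and 0.39 in culture A and -0.04 and 0.54 in culture B of DT40. The arrays of both lines overlap. Only 1 of 199 clones, dkfz426_11f22r1, had opposite signs on all 4 DKO-R and all 4 DT40 arrays (0.503%, against 0.81% of the other clones), and centring each printed block turned its sign in DT40.

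Levels of the 3 lines without DOX were compared through the separate channels of the DOX arrays. After normalisation each extract has a log2 intensity for each clone, and limma compared 2 extracts per line, with calls at an adjusted p under 0.15 over 7316 clones, 213 of them dkfz426. No 2 lines share an array here, so the line and the array cannot be told apart. Between the cultures of a line the levels of the dkfz426 clones differed by a median of 0.28 in DKO-R, 0.44 in DKO-S and 0.25 in DT40, close to the other clones (0.26, 0.41 and 0.25). DKO-S without DOX was read on a single array per culture, in Cy5 for culture A and in Cy3 for culture B. Its value of 0.44 therefore mixes the culture with the dye and the array.

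Set against DT40, more dkfz426 clones were called lower than higher in both derived lines. In DKO-R 35 of the 213 were called against DT40, 9 higher and 26 lower. This is 16.4% of the clones, where 18.8% of all clones were called, 9.88% higher and 8.94% lower. In DKO-S 30 were called against DT40, 2 higher and 28 lower, or 14.1%, where 16.6% of all clones were called, 6.66% higher and 9.94% lower. The share called was thus near that of the array, with more lower than higher calls. At a confidence of 0.60 the split was nearly even and the share was below that of the array, with 7 of 113 called in DKO-R (3 higher, 4 lower), where 16% of all clones were, and 5 in DKO-S (2 higher, 3 lower), where 12.3% were. An unadjusted p under 0.05 was found for 48 of the 213 in either comparison (22.5%), where 23.8% of all clones in DKO-R and 22.8% in DKO-S had one, and 17 (7.98%) were 2-fold or more apart in each, where 11.8% and 11% of all clones were. Both comparisons use the same DT40 extracts.

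The median log2(DKO-R/DT40) of the dkfz426 clones was -0.13, against 0.05 for all clones tested. The median log2(DKO-S/DT40) was -0.20, against -0.06 for all clones. Single cultures moved these medians and, in part, those of all clones. For DKO-R the dkfz426 median was -0.22 without DKO-R culture A (all clones 0.05), -0.20 without DT40 culture A (-0.01) and -0.08 without DT40 culture B (0.11). For DKO-S it was -0.37 without DKO-S culture A (-0.22) and -0.06 without DKO-S culture B (0.08). At a confidence of 0.60 the medians were -0.01 in DKO-R (all clones 0.08) and -0.09 in DKO-S (-0.01). The lower lean was shared with the DT40subNB, pat and pgn1c clones, whose medians were -0.14, -0.14 and -0.12 in DKO-R and -0.26, -0.12 and -0.15 in DKO-S. The ChEST clones, at 0.17 and 0.03, lay on the other side of 0 and make up most of the array. By brightness over the arrays, the dkfz426 medians were below those of all clones in the 3 dimmer quartiles (-0.13, -0.14 and -0.22 in DKO-R against DT40, where all clones were at 0.14, 0.10 and 0.01). In the brightest quartile both were at -0.03.

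**Figure D4:**
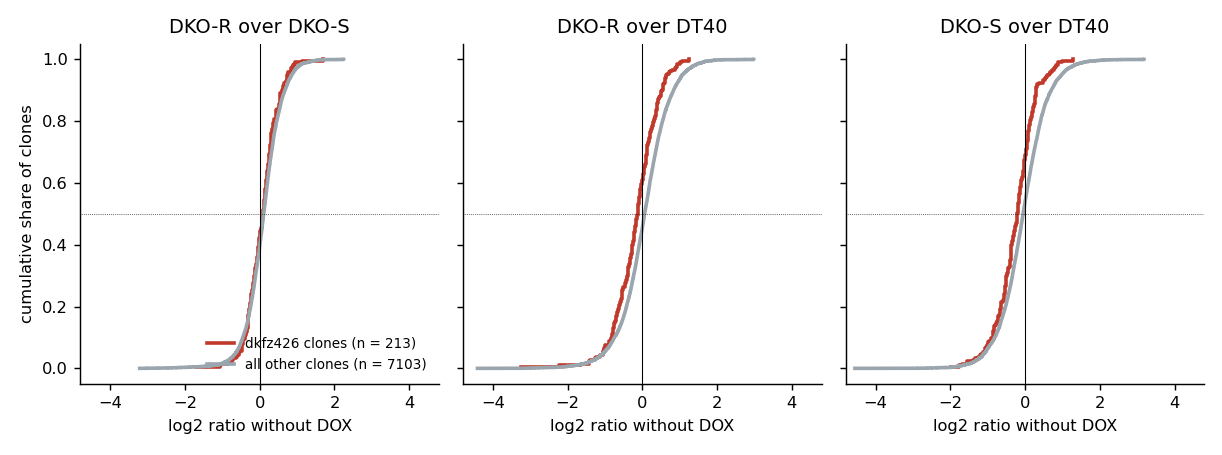
Cumulative share of clones (y axis) by log2 ratio without DOX (x axis), for 213 dkfz426 clones and 7103 other clones, in DKO-R over DKO-S, DKO-R over DT40 and DKO-S over DT40. In the last 2 comparisons the dkfz426 curve lies to the left of that of the other clones, with medians of -0.13 and -0.20 against 0.06 and -0.05.

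The counts of calls depend on single extracts, and so do those over all clones. Without DT40 culture A or without DT40 culture B, 3 dkfz426 clones were called in each comparison with DT40, all lower and all among those called with every extract, where 1.77% to 3.42% of all clones were called. Without DKO-R culture A or B the count for DKO-R was 9 or 3, of which 8 and 2 were lower (4.3% and 3.78% of all clones), and that for DKO-S was 16, all lower (11.2% and 11.1% of all clones). Without DKO-S culture A or B the count for DKO-R was 63, of which 48 and 49 were lower (32.4% and 31.3% of all clones), and without DKO-S culture A that for DKO-S was 57, of which 54 were lower (27.7% of all clones). Without DKO-S culture B 45 clones were called in DKO-S against DT40, of which 28 were lower (23.5% of all clones). The lower calls outnumbered the higher ones in each of these fits.

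The lowest adjusted p in DKO-R against DT40 was that of dkfz426_10p21r1. Its normalised log2 intensity was 10.45 and 10.00 in DKO-R, 11.14 and 10.37 in DKO-S and 12.61 and 12.28 in DT40 (cultures A and B without DOX). All 4 extracts of the derived lines lay below both of DT40. The difference was -2.22 in DKO-R against DT40 (standard error 0.33, adjusted p = 0.00783 from limma) and -1.69 in DKO-S against DT40 (standard error 0.33, adjusted p = 0.0207). With DOX, on the same arrays, the order was the same, at 10.76 and 10.57 in DKO-R, 11.07 and 10.74 in DKO-S and 12.33 and 12.41 in DT40.

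The lower calls of DKO-R included dkfz426_9d13r1, at 10.76 and 10.58 in DKO-R, 11.48 and 11.08 in DKO-S and 12.38 and 12.26 in DT40. Its difference in DKO-R against DT40 was -1.65 (standard error 0.28, adjusted p = 0.0111 from limma). A further clone, dkfz426_7d4r1, was at 11.01 and 10.28 in DKO-R and 12.22 and 11.95 in DT40, a difference of -1.44 (standard error 0.32, adjusted p = 0.0285). In both, the extracts of DKO-R and DT40 were well apart. However, dkfz426_7d4r1 was printed in 1 spot and measured on 9 of the 12 usable arrays. Without DKO-R culture B its difference was -1.07. The clone dkfz426_16g22r1 was at 10.26 and 10.05 in DKO-R and 11.16 and 11.98 in DT40, with a difference of -1.42 (adjusted p = 0.0312). Its direction in DKO-R against DT40 turned to 0.32 when spots of low confidence were kept.

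The largest difference of the library had the largest standard error among the clones named for a line difference. The clone dkfz426_29o8r1 was at 11.24 and 7.48 in DKO-R, 11.98 and 10.14 in DKO-S and 12.48 and 12.76 in DT40. Culture B of DKO-R stood far below every other extract. The difference of -3.26 in DKO-R against DT40 had a standard error of 0.96 (adjusted p = 0.0700 from limma), and without DKO-R culture B it was -1.38 and no longer called.

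Lower calls of DKO-S were led by dkfz426_13p5r1, the clone that also led the direct arrays. It was at 11.63 and 11.12 in DKO-R, 9.56 and 9.80 in DKO-S and 11.44 and 11.85 in DT40. By the labels of the DOX arrays, DKO-S was low in both cultures, while DKO-R and DT40 overlapped. The difference was -1.97 in DKO-S against DT40 (standard error 0.30, adjusted p = 0.00932 from limma). Next came dkfz426_6l22r1, at 11.87 and 11.53 in DKO-R, 10.77 and 10.75 in DKO-S and 12.29 and 12.77 in DT40. The 3 lines were in separate ranges on the DOX arrays. On the direct arrays the log2(DKO-R/DKO-S) of dkfz426_6l22r1 was -0.52 where Cy3 held DKO-R and 0.39 where Cy5 did. Its difference in DKO-S against DT40 was -1.77 (standard error 0.29, adjusted p = 0.0118 from limma). The clones dkfz426_1c17r1 and dkfz426_15m13r1 were lower in DKO-S than in DT40 by similar amounts, -1.55 and -1.40 (standard error 0.27 each, adjusted p = 0.0153 and 0.0192). The smallest of the 28 lower calls were those of dkfz426_9e5r1, dkfz426_6p5r1 and dkfz426_1m1r1, from -0.83 to -0.70.

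Fewer clones were higher in the derived lines, and by less. In DKO-R against DT40 the 5 highest of the 9 called were dkfz426_13p21r1 (1.24), dkfz426_6o1r1 (1.05), dkfz426_20k24r1 (1.00), dkfz426_5b5r1 (0.92) and dkfz426_14c10r1 (0.92), with adjusted p values from 0.0674 to 0.133 from limma. The tightest of them was dkfz426_5b5r1, at 12.10 and 12.02 in DKO-R, 11.76 and 11.51 in DKO-S and 11.19 and 11.09 in DT40. The 3 lines did not overlap. Among the brightest was dkfz426_14c10r1, at 14.79 and 14.46 in DKO-R, 13.82 and 13.60 in DKO-S and 13.52 and 13.89 in DT40. Here DKO-R stood apart and DKO-S lay within the range of DT40. On the direct arrays the log2(DKO-R/DKO-S) of dkfz426_14c10r1 was 0.23 where Cy3 held DKO-R and -0.63 where Cy5 did. That of dkfz426_5b5r1 was 0.13 and -0.16 in the same order, so neither clone kept its sign after the dye exchange. In DKO-S against DT40 the called clones were dkfz426_13p21r1 (1.28, adjusted p = 0.123) and dkfz426_9l15r1 (0.82, adjusted p = 0.0965). For dkfz426_13p21r1 the DKO-S extracts were at 11.97 and 10.38, further apart than the lines, and without DKO-S culture A the difference was 0.48 and was no longer called. For dkfz426_6o1r1 the 2 DKO-R extracts were at 10.25 and 11.30, and it is one of the clones that followed the dye on the direct arrays.

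**Figure D5:**
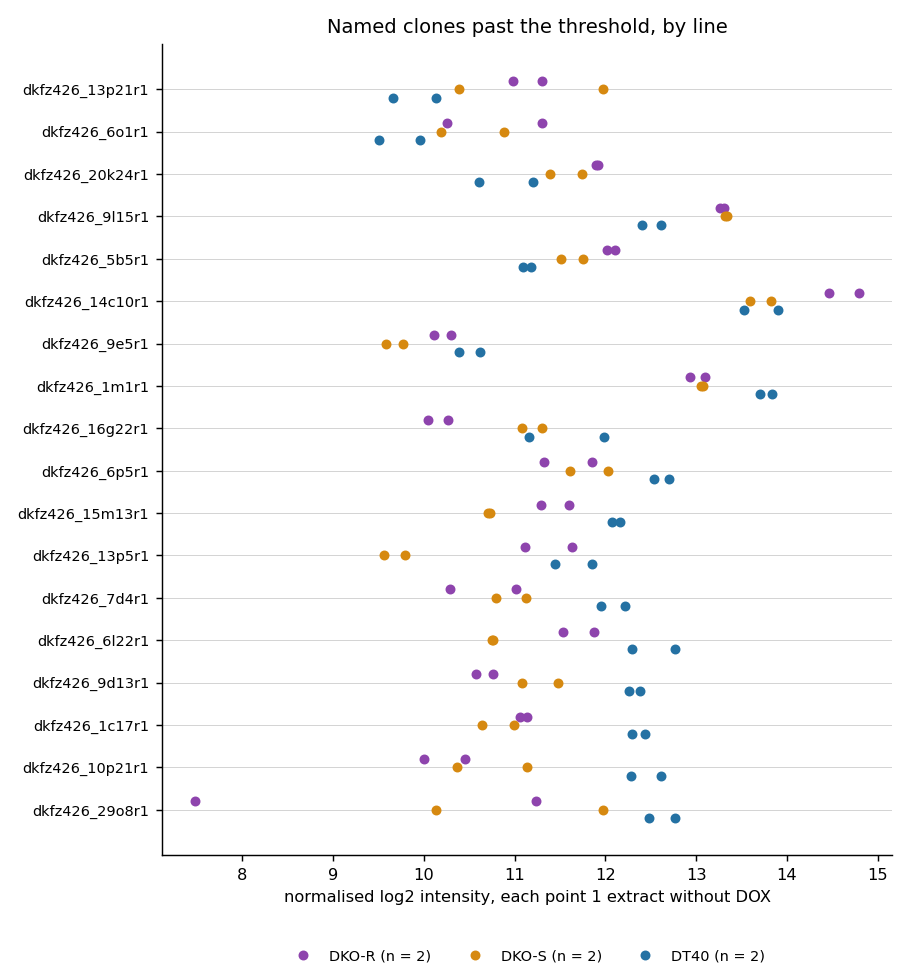
Normalised log2 intensity (x axis) of the 18 named dkfz426 clones past the threshold in a comparison of separate channels, in each of the 2 extracts without DOX of DKO-R, DKO-S and DT40 (1 point per extract). The split into higher and lower clones depends on how clones were chosen for naming. Lower in both derived lines is dkfz426_10p21r1, at 10.00 to 11.14 against 12.28 and 12.61 in DT40. By the labels of the DOX arrays, dkfz426_13p5r1 is lower in DKO-S only. On the direct arrays its log2(DKO-R/DKO-S) was -1.03 and -1.19, opposite in sign to the DOX arrays. Culture B of DKO-R stands at 7.48 for dkfz426_29o8r1.

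Between DKO-R and DKO-S the separate channels called 1 of the 213 dkfz426 clones (0.469%), where 1.49% of all clones were called, 0.82% higher and 0.67% lower. The clone was dkfz426_13p5r1, higher in DKO-R by 1.70 (standard error 0.30, adjusted p = 0.0577 from limma). With DOX, on the same arrays, it was at 11.59 and 11.38 in DKO-R and 9.54 and 9.96 in DKO-S. An unadjusted p under 0.05 was found for 21 of the 213, or 9.86%, against 12.2% of all clones, and 5 (2.35%) were 2-fold or more apart, against 4.21% of all clones. The clones next in size with the same sign in every pairing of extracts, dkfz426_20d9r1 (1.12), dkfz426_6l22r1 (0.94), dkfz426_1g11r1 (-1.07), dkfz426_16g22r1 (-1.03) and dkfz426_15g19r1 (-0.86), did not pass, with adjusted p values from 0.195 to 0.369. The count was 20 without DKO-S culture A and 14 without DKO-S culture B, where 13.3% and 9.22% of all clones were called. By limma it was 0 without either DKO-R culture, where 0.123% and 0.137% of all clones were called.

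Thus dkfz426_13p5r1 had the largest repeatable difference between DKO-R and DKO-S on both sets of arrays, and the sets disagree on its sign. It was lower in DKO-R on both direct arrays, at -1.03 and -1.19, and higher in DKO-R on the DOX arrays, by 1.70. Its dye effect was 0.02, and its log2(DOX/no DOX) lay between -0.28 and 0.31 on the 8 DOX arrays of DKO-R and DT40. The clone dkfz426_20d9r1 likewise was at -0.41 and -0.86 on the direct arrays and at 1.12 in the separate channels. Of the 175 dkfz426 clones tested on both sets of arrays, 102 had opposite signs in them, as did 3070 of 5471 other clones. Among the 175, 24 were at 0.5 or more in either direction on the direct arrays and kept their sign after the dye exchange. Of these 24, 19 had the opposite sign in the separate channels. Over the other clones this was 247 of 360. Both measures include the same culture A extracts of DKO-R and DKO-S, on different arrays, and which set of labels holds was not tested.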

How the data were processed

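Cy3- and Cy5-labelled RNA extracts of DKO-R, DKO-S and DT40 cells were compared on 14 arrays. The authors deposited the intensity of each spot in both channels unnormalised, from BlueFuse for Microarrays (version 1.1, build 2765), and its confidence as a fraction. The authors also deposited a table of log2(Cy5/Cy3), centred and in the same dye direction on every array, used here as an alternative only. The labels state 2 µg of RNA per label and the methods another amount.

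Control spots were left out. Spots below a confidence of 0.30 were dropped, the median log2(Cy5/Cy3) of an array was subtracted and spots of a clone were averaged. Both orientations of a pair were averaged, with both required. For the DOX response of DKO-S, the array of each culture that kept 30% of its spots or more was used alone. The dye effect of each clone was subtracted first. In the other log-ratio results the DKO-S pairs, weak arrays included, entered the shared spread only. With limma 3.58.1 (R 4.3.3, functions lmFit and eBayes) 1 mean per comparison was fitted to the 7 pairs, with at least 2 residual degrees of freedom per clone. For the separate channels, intensities were normalised by loess (span 0.3) and Aquantile on the 10 usable DOX arrays. The mean of the clone in that dye was subtracted, and the dyes of an extract were averaged in DKO-R and DT40. Each DKO-S extract was read in 1 dye only. All fits were made on the whole array, with Benjamini-Hochberg adjustment over all clones tested. The number of extracts limits the precision. In the separate channels p values measure the spread between extracts of a line, and in the log ratios that between pairs of a line. The direct arrays have 1 pair, so their p values rest on the spread of the DOX pairs. They hold no spread between cultures in DKO-R over DKO-S.

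The clones named are those past the threshold (the 5 highest and 5 lowest where over 10 passed), the 3 highest and 3 lowest with the same sign on every array or pairing, and for the dye effect the 3 highest and 3 lowest. Members, lists and thresholds were chosen with earlier results of these data known. The same culture letter did not pair extracts between lines, as the correlations of their A minus B differences were -0.03, -0.09 and 0.02. Settings tried beside these were centring by printed block, loess, a confidence of 0.60 or none, the brightest clones alone (without the dimmest 25%), the deposited table, the other threshold, each direct array alone, the other treatment of the weak arrays, leaving out each culture, all 12 extracts, and replicate blocks. The other treatment left the weak arrays out of the shared spread, and for the DOX response of DKO-S brought them back. When a culture was left out of the log ratios, 1 residual degree of freedom was accepted.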

Additional observations from a re-analysis of the deposited data

How the results depend on the processing

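Of 114 counts of called dkfz426 clones under other settings, 80 stayed within 1.5 times the main count, as 0 in most comparisons. Some settings could hardly move a count. Without the dimmest 25% of clones, 180 of 180 dkfz426 clones on the direct arrays and 211 of 213 in the separate channels were still tested. No block or pairing changed a DOX count, which was 0 in each line with line and culture as a replicate block. With the culture letter as a block, the separate channels called 1 (DKO-R against DKO-S), 26 (DKO-R against DT40) and 27 (DKO-S against DT40). On the direct arrays 1 clone was called after loess, 2 after centring each printed block, 66 on the array with DKO-R in Cy3 alone and 68 on that with DKO-R in Cy5 alone, where 22.6% and 22.9% of all clones were. Leaving out a culture gave 0 to 2 there, 0 in the DOX responses of DKO-R and DT40 and in their difference, and 0 to 1 in that of DKO-S, whose count was 18 with the weak arrays. In the separate channels, DKO-R against DKO-S gave 3 without the confidence filter, 0 at a confidence of 0.60, 0 at an adjusted p under 0.05 and 2 with all 12 extracts, where 1.32%, 0.289%, 0.314% and 2.84% of all clones were called, and 0 to 20 with a culture left out (0.123% to 13.3%). DKO-R against DT40 gave 56 of 273, 7 of 113 and 9 of 213 under the first 3 of these, where 21.7%, 16% and 6.59% of all clones were called, and 3 to 63 with a culture left out (1.77% to 32.4%). DKO-S against DT40 gave 5 of 113 at a confidence of 0.60 and 9 of 213 at an adjusted p under 0.05 (12.3% and 5.18% of all clones), and 3 to 57 with a culture left out (1.85% to 27.7%). At a confidence of 0.60, 113 dkfz426 clones were left to test and a median of 53.5% of their spots was kept. Subtracting channel medians in place of loess and Aquantile gave 38 for DKO-R (6 higher, 32 lower) and 32 for DKO-S (2 higher, 30 lower). Many clones were named for having the same sign throughout. Their ratios also stay the same by construction under the other threshold, the culture letter as a block, or all 12 extracts. The same holds without the dimmest clones, or without a culture of a line not compared. A count of changed signs therefore does not measure stability. Among 770 values of named clones under other settings, 4 changed sign. These were dkfz426_16g22r1 without the confidence filter, at 0.59 (DKO-R against DKO-S) and 0.32 (DKO-R against DT40), dkfz426_15g19r1 at a confidence of 0.60, at 0.19 (DKO-R against DKO-S), and dkfz426_11f22r1 with each block centred, at 0.090 in the DOX response of DT40. The median dye effect of the library moved by less than the spread between pairs of arrays under loess, block centring and no filter. Causes of these changes were not tested. The depth of a 2-colour array is limited by its signal, and 98 of the 273 clones lacked a kept spot on at least 1 of the 12 usable arrays.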
